A study of Homo sapiens with 6 samples.

Results

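The proteasome genes were followed in A549 cells, an established human non-small cell lung cancer line, after knockdown of METTL3, the catalytic subunit of the enzyme complex that writes N6-methyladenosine on RNA. Members were all rows whose symbol is PSMA, PSMB, PSMC, PSMD, PSME, PSMF or PSMG followed by a number, except for PSMB9, which was not analysed here. There were 47 members among the 57781 rows of the count table: 18 of the 20S core, 17 of the 19S cap, 5 activators and inhibitors, and 7 assembly factors. RNA was sequenced from 3 libraries with a vector, whose genotype is given as WT, and from 3 libraries of shMETTL3 cells, whose genotype is given as METTL3 knockdown. The hairpin was carried on a cloned plasmid, the number of hairpins behind the 3 shMETTL3 libraries is not given, and no agent or time point is named for either group. The labels do not say whether the libraries came from separate cultures, and the study's methods speak of independent repeats only for its experiments in general, so the p-values measure the spread between these libraries, which may be technical.

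The 26S proteasome degrades proteins that carry ubiquitin chains. Its 20S core is a barrel of stacked rings, with outer rings of alpha subunits (PSMA) that gate the entry and inner rings of beta subunits (PSMB), of which β1, β2 and β5 cut peptide bonds. The 19S cap binds ubiquitin chains, removes them, and unfolds the substrate with a ring of ATPases (PSMC), held with the non-ATPase subunits (PSMD) in a base and a lid. Dedicated chaperones build the alpha ring and the cap base, other activators (PSME) can dock on the core in place of the cap, and the transcription factor NFE2L1 is known to raise proteasome genes together when the proteasome is inhibited.

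NFE2L1 and NFE2L2 pair with small MAF proteins and bind the antioxidant response element, whose core is TGACNNNGC. The 250 bases before each transcript start were searched for it on both strands in the RefSeq promoter sequences of GRCh38.p14, which held 41 of the 47 members. The core was present in 12 of the 41 (29.3%) and in 13.2% of the 27305 gene symbols in that collection. The windows below, for 5 of the 6 genes concerned, are shown because they hold the core and their genes changed in shMETTL3 cells, in both directions. The other gene, PSMA4, holds it between 2 of its listed starts and is not printed. The core is in capitals, and each window is read 5′ to 3′ on the gene's strand.
PSMD3: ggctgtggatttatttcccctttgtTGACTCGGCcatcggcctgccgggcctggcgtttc
PSMD12: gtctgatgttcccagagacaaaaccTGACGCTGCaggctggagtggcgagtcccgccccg
PSMD5: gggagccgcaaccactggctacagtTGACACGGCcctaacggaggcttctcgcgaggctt
PSMB3: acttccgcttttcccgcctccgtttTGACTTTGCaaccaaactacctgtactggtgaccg
PSMG2: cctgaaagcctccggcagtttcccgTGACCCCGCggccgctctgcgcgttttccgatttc
The windows lie at chr17:39980745-39980804 on the plus strand, 29 bases before the start for PSMD3; chr17:67366708-67366767 on the minus strand, 157 bases before the start for PSMD12; chr9:120843022-120843081 on the minus strand, 126 bases before the start for PSMD5; chr17:38752612-38752671 on the plus strand, 96 bases before the start for PSMB3; and chr18:12658674-12658733 on the plus strand, 31 bases before the start for PSMG2. PSMG2 has another listed start farther along chromosome 18, and no core was found before that one. The first 3 genes were higher and the last 2 were lower in shMETTL3 cells, as given below. The core was held by 3 of 14 matched members that were higher, 3 of 6 that were lower and 6 of 18 that were not called. Whether its presence goes with a direction was not tested. Of the other motifs searched on both strands, the CCAAT box was in 43.9% of members and 37.0% of all symbols, the GC box GGGCGG in 61.0% and 46.2%, the ETS core CCGGAAG in 26.8% and 10.2%, and the TATA box TATAAA in 12.2% and 13.0%. These are matches of letters and not measured binding, and motifs in 1 window may overlap.

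The 6 libraries held 14931426 to 19108928 counts, and levels are given as CPM, counts scaled to the same library total, after TMM scaling, which sets the libraries to a common centre. At these depths 3 counts stand at 0.15 to 0.189 CPM, for counting error only. METTL3 stood at 49.4, 50.6 and 49.5 CPM in vector and 18.9, 19.9 and 19.3 CPM in shMETTL3 libraries, a log2 fold change of -1.36 ± 0.067 (SE), with an adjusted p of 4.6e-16 by edgeR's quasi-likelihood test after Benjamini-Hochberg adjustment, and its groups did not overlap. As a check of the cell type, 5 of 5 epithelial markers were lower in shMETTL3 cells, and their summed level was 8981 to 9591 CPM in vector and 3927 to 4323 CPM in shMETTL3 libraries. Summed leukocyte markers ranged from 0.778 to 1.41 CPM in vector and 7.08 to 8.0 CPM in shMETTL3 libraries, nearly all of it CD14 and ITGAM, with CD3E at 0 in every library and PTPRC under 0.1 CPM. Endothelial markers summed to 0 to 0.123 and 1.40 to 1.89 CPM (CDH5, with VWF at 0 and PECAM1 not analysed here), fibroblast markers to 4.07 to 7.05 and 10.6 to 11.6 CPM (mostly COL1A1), and alveolar type 2 markers to 0.279 to 0.429 and 0.945 to 1.30 CPM (SFTPA1 at 0, the shMETTL3 sum mostly SFTPB). NKX2-1 of the same list went the other way, with 0, 5 and 5 counts in vector and 1, 0 and 0 counts in shMETTL3 libraries. The part of these shifts in the results below was not tested, and in bulk RNA fewer cells of a type and less RNA per cell cannot be told apart.

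Proteasome genes were called in both directions in shMETTL3 cells. Of the 44 members that passed the filter on low counts, 24 changed at an adjusted p under 0.05, 15 of them higher and 9 lower, beside 66.6% of all 15125 genes tested (33.7% higher and 32.9% lower). This share of members, 54.5%, was under that background. Their median log2 fold change was 0.014, beside 0.0022 over all genes tested. It was 0.0041 when vector replicate 1 was left out, 0.079 when vector replicate 2 was, and 0.021 to 0.027 when any 1 shMETTL3 library was. Among the members 1, PSMC1, passed a log2 change of 1 in size, as did 2678 genes overall. The groups did not overlap for 24 members (16 higher, 8 lower), beside 69.4% of all genes tested (35.2% higher, 34.3% lower). PSMA8, the testis form of an alpha subunit, and PSMB8 had 0 counts in every library, and PSMB11, the thymus form of β5, had 2 counts in vector replicate 2 and 0 elsewhere, so these 3 could not be compared.

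**Figure D1:**
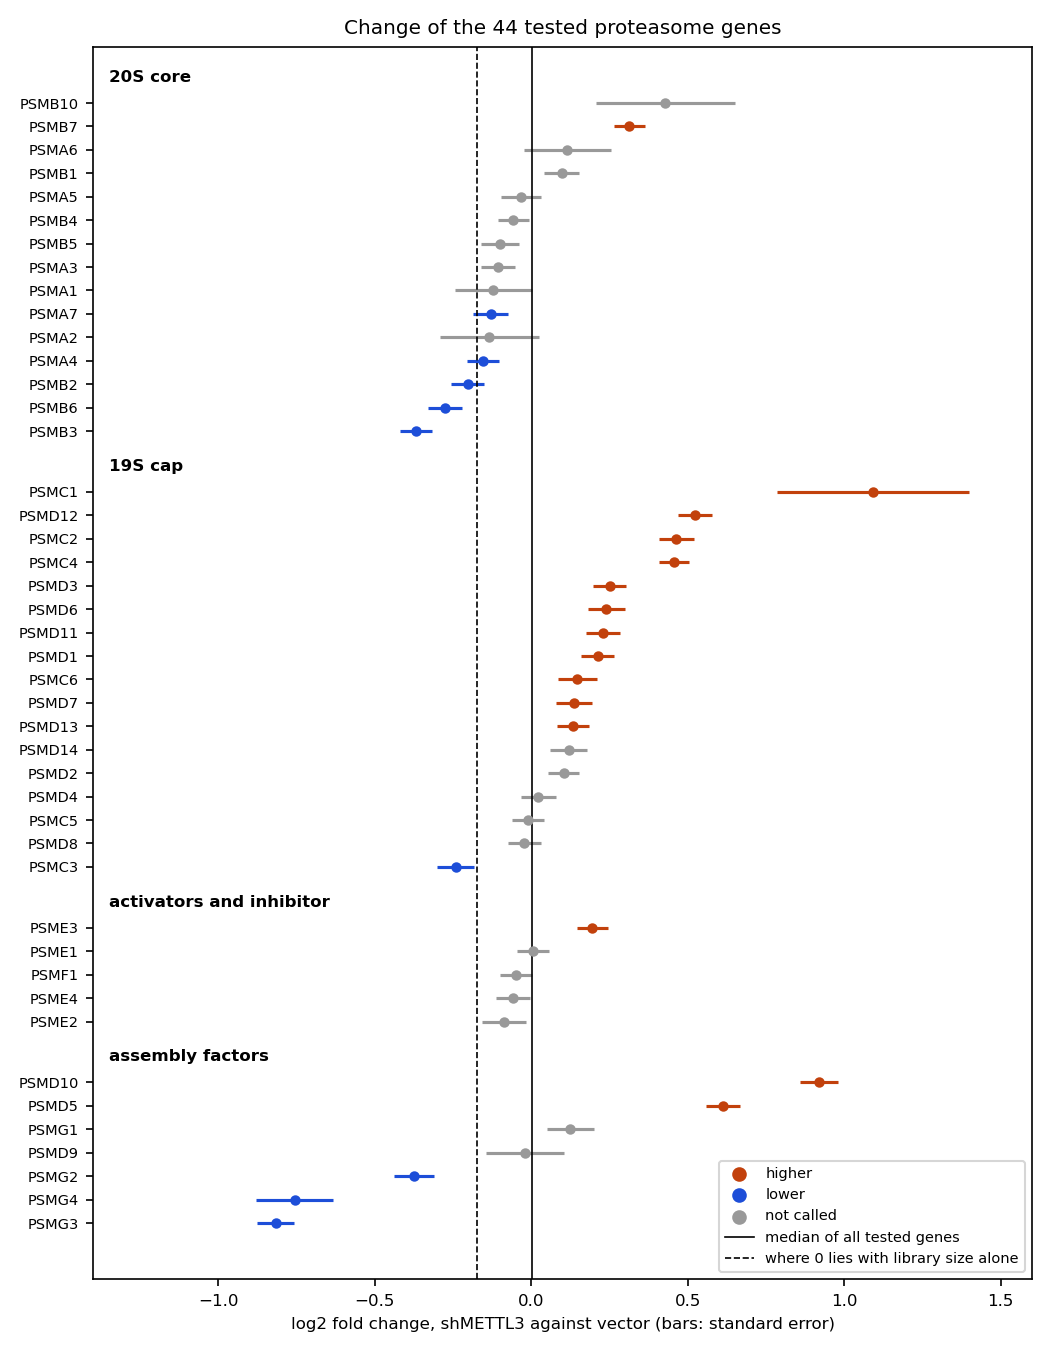
Log2 fold change of each of the 44 tested members, shMETTL3 against vector, with standard errors as bars, grouped by class and coloured by call at an adjusted p under 0.05. The solid line marks the median of all genes tested (0.0022) and the dashed line where 0 would lie if libraries were scaled by their totals alone; after TMM scaling, as plotted, 11 of 17 cap subunits and 1 of 15 core subunits were called higher.

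The 2 large classes differed in their counts. Among the 17 members of the 19S cap, 11 rose and 1 fell (64.7% and 5.9%), with a median log2 fold change of 0.15. With 1 library left out at a time, 8 to 10 of them were higher and 1 was lower. In the 20S core, 1 of 15 tested subunits rose and 5 fell, with a median of -0.11. These are 6.7% and 33.3%, beside 33.7% and 32.9% of all genes tested, so the share that fell was near the background. When libraries were scaled by their totals alone, 4 core subunits were called higher and 1 lower and the core's median turned to 0.067, and with 1 library left out at a time 3 to 9 were lower and 1 to 2 higher. Of the 5 activators and inhibitors 1 rose, and of the 7 assembly factors 2 rose and 3 fell. The core's median was -0.053 without vector replicate 2 and -0.069 without shMETTL3 replicate 2. These are counts beside the background above, with no test between classes. Under the scaling by totals alone, the median of all genes tested moved to 0.18 and the split of members to 30 changed, 26 higher and 4 lower, beside 67.8%, 44.6% and 23.2% of all genes tested. Higher calls then made up 86.7% of the members called, in place of 62.5%, and 65.8% of all calls, in place of 50.6%. The cap's median was then 0.32; this scaling moved the medians of the cap, the core and all genes by about the same amount.

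A ratio within a library needs no scaling between libraries. The summed CPM of the 19S cap divided by that of the 20S core was 1.14, 1.12 and 1.18 in vector, and 1.35, 1.39 and 1.34 in shMETTL3, a 1.19-fold higher mean with no overlap of the groups. Cap transcripts summed to 1974 ± 10.2 CPM (SD, n = 3) in vector and 2219 ± 8.88 CPM in shMETTL3, while core transcripts summed to 1721 ± 43.4 and 1630 ± 39.0 CPM. The fold was 1.19 without PSMA1, PSMA2, PSMA6, PSMB10 and PSMC1, whose transcripts lie mostly inside exons of another protein-coding gene. PSMC5, with 13.7% of its transcript inside such exons, was kept. The fold was 1.16 without PSMC2, PSMC4, PSMD12 and PSMB7, the core and cap subunits with the largest rises among the other rows. These subunits were chosen after their values were seen. Activators and inhibitors summed to 689 ± 27.0 and 709 ± 10.8 CPM, and assembly factors to 251 ± 2.74 and 276 ± 3.21 CPM.

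**Figure D2:**
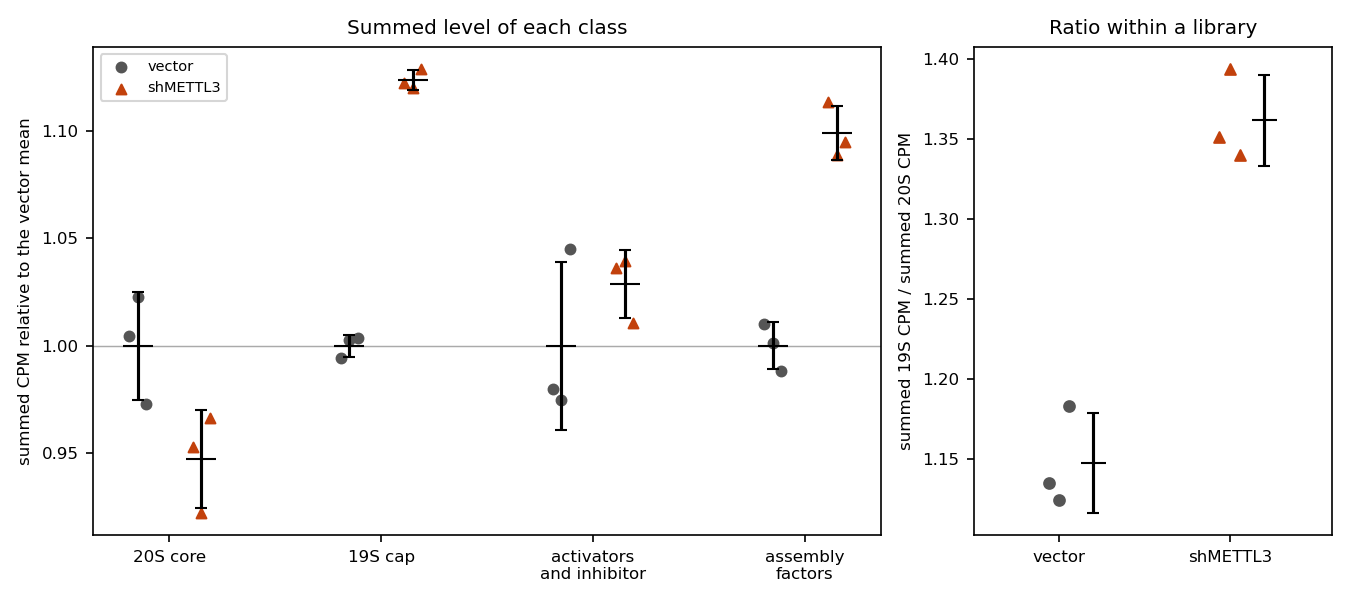
Left, summed CPM of each class in each library divided by the vector mean of that class; right, summed 19S CPM over summed 20S CPM in each library. Points are libraries, and bars are the mean and SD of 3; the axes do not start at 0. The 19S to 20S ratio of every shMETTL3 library (1.34 to 1.39) lay above every vector library (1.12 to 1.18).

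Some rows stand far below their partners in the same complex, and what the annotation gives for them bears on how they can be read. Subunits of the core are present in equal number in the particle, yet their levels differed. The range was taken over members that share under 25% of the canonical transcript with exons of another protein-coding gene. Among 11 such tested core members the level in vector cells ran from 28.5 CPM per kb of canonical transcript (PSMA5) to 254 CPM per kb (PSMB4). Among 16 such cap members it ran from 17.1 (PSMD12) to 160 CPM per kb (PSMD8), and the medians were 119.6 and 59.6. In 6 members at least 25% of the canonical transcript lay inside exons of another protein-coding gene in GENCODE v44 on GRCh37: PSMA2 (100%), PSMC1 (83.2%), PSMA6 (81.4%), PSMA1 (67.0%), PSMB10 (56.1%) and PSMD9 (28.8%). Their levels were 0.212 to 13.0 CPM per kb, and except for PSME4 at 11.3 CPM per kb every other tested member was at 13.5 or more. For 5 of them the other gene lay on the same strand, and for PSMC1 it was NRDE2 on the opposite strand. A count per gene can leave out reads that fit 2 genes, and no source gives the strand used in counting, so the level of these 6 rows is uncertain. PSMD7, with 51.6% of its transcript inside exons of a long non-coding RNA on the opposite strand, stood at 38.4 CPM per kb.

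**Figure D3:**
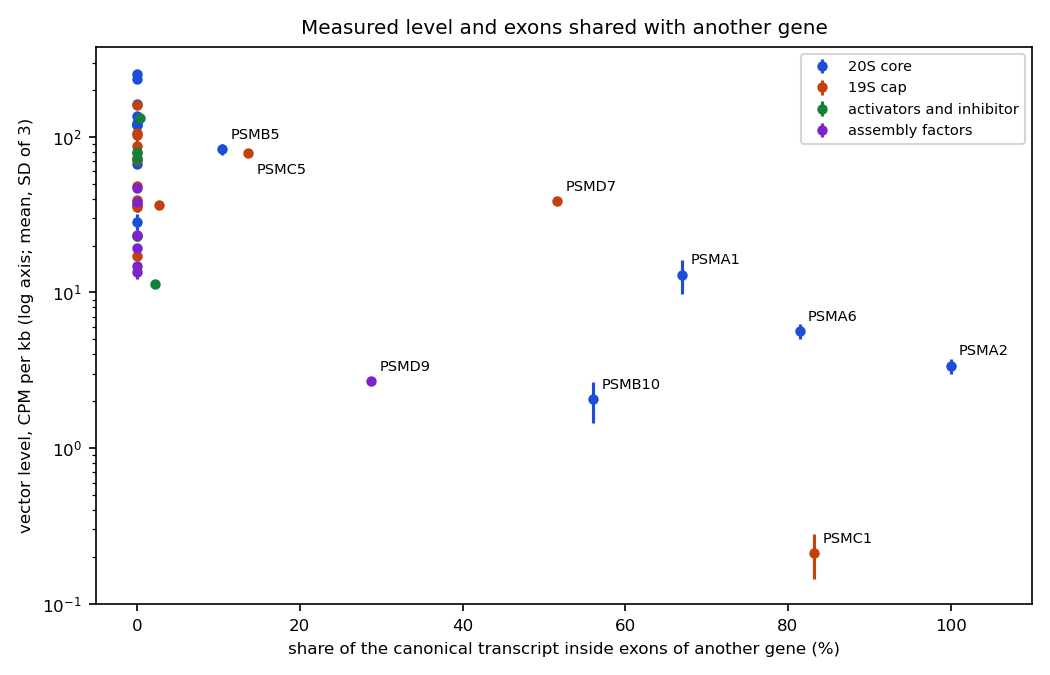
Level of each tested member in vector cells, in CPM per kb on a log axis (mean and SD of 3 libraries), against the percentage of its canonical transcript that lies inside exons of any other gene. The 6 members that share at least 25% with a protein-coding gene sit at 0.212 to 13.0 CPM per kb, while PSMD7, which shares with a non-coding gene, sits at 38.4 CPM per kb.

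Among the catalytic subunits of the core, PSMB7 (β2) rose while PSMB6 (β1) fell. PSMB7 stood at 157, 159 and 161 CPM in vector and 200.3, 199.7 and 193 CPM in shMETTL3 libraries, a log2 fold change of 0.31 ± 0.049 (SE) with an adjusted p of 3.0e-06 by edgeR's quasi-likelihood test after Benjamini-Hochberg adjustment; all shMETTL3 libraries lay above all vector libraries. PSMB6 stood at 97, 101 and 97.1 CPM in vector and 80.7, 77.3 and 86 CPM in shMETTL3 libraries, a log2 fold change of -0.28 ± 0.055 (SE) with an adjusted p of 7.0e-05, and its groups did not overlap either. PSMB5 (β5) stood at 83.1, 95 and 82.5 CPM in vector and 80.8, 77.5 and 85 CPM in shMETTL3 libraries, with overlapping groups, a log2 fold change of -0.10 ± 0.060 (SE) and an adjusted p of 0.139. With 1 library left out at a time, the log2 fold change of PSMB5 ran from -0.14 to -0.038, and it was called lower in 1 of these 6 fits, without vector replicate 3. With libraries scaled by their totals alone, PSMB6 was no longer called (-0.10) and PSMB7 stayed higher (0.49).

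After TMM scaling, the structural subunits of the core fell or were not called. PSMB3 stood at 103, 103 and 106 CPM in vector and 81.4, 79.7 and 80.2 CPM in shMETTL3 libraries, a log2 fold change of -0.37 ± 0.051 (SE) and 0.774-fold of vector with an adjusted p of 4.5e-07, and it was lower in every setting tried, the scaling by totals included (-0.19). PSMB2 (log2 fold change -0.20, adjusted p 0.00123), PSMA4 (-0.15, 0.0105) and PSMA7 (-0.13, 0.0399) were called lower by smaller amounts, with groups that overlapped for PSMA7. PSMA7 stood at 224, 233 and 217 CPM in vector and 209.9, 188 and 219 CPM in shMETTL3 libraries. PSMA4 and PSMA7 lost the call when 3 and 4 of the 6 libraries were left out singly. PSMA7 stood at -0.070 without shMETTL3 replicate 2, and it was not called either with upper-quartile scaling (adjusted p 0.091 by edgeR's quasi-likelihood test) or with at least 10 counts in every library (0.072). Scaling by totals alone turned them to 0.020 and 0.044 and PSMB2 to -0.029, none of them called. Not called were PSMA3 (-0.11), PSMA5 (-0.034), PSMB4 (-0.058) and PSMB1 (0.10), and, among rows that share exons, PSMA1 (-0.12), PSMA2 (-0.13) and PSMA6 (0.12). PSMB1 was called higher without shMETTL3 replicate 2 (0.15), and PSMB1 and PSMB4 with totals alone (0.27 and 0.12). Over the rings, 2 of 7 alpha subunits fell and none rose, and 3 of 8 beta subunits fell and 1 rose, beside 32.9% lower and 33.7% higher among all genes tested. Without vector replicate 3, 9 core subunits were called lower, with PSMA1, PSMA3, PSMA5 and PSMB5 added.

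In the ATPase ring of the cap, 4 of 6 subunits rose and 1 fell, beside 33.7% higher and 32.9% lower among all genes tested. PSMC2 stood at 97.5, 102 and 88.7 CPM in vector and 127, 133 and 138 CPM in shMETTL3 libraries, a log2 fold change of 0.46 ± 0.056 (SE) with an adjusted p of 4.8e-08 by edgeR's quasi-likelihood test after Benjamini-Hochberg adjustment. PSMC4 stood at 182, 189.9 and 187 CPM in vector and 250.1, 259 and 258 CPM in shMETTL3 libraries, a log2 fold change of 0.46 ± 0.049 (SE) with an adjusted p of 4.5e-09. In both, every shMETTL3 library lay above every vector library. PSMC3 stood at 136, 119.6 and 147 CPM in vector and 113, 116 and 111 CPM in shMETTL3 libraries, a log2 fold change of -0.24 ± 0.060 (SE) with an adjusted p of 9.3e-04, also with no overlap, but was not called with libraries scaled by totals alone (-0.067). PSMC6 was called higher by a small amount (0.15, adjusted p 0.0413) and lost the call in DESeq2, without a filter on low counts and when any 1 of 5 libraries was left out, and PSMC5 was not called (-0.011), except with totals alone (0.16).

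PSMC1 had the largest fold change and the smallest counts among the 44 tested members. It had 11, 20 and 16 counts in vector and 39, 28 and 41 counts in shMETTL3 libraries, or 0.613, 1.2 and 0.981 CPM in vector and 2.02, 1.4 and 2.58 CPM in shMETTL3 libraries. The difference was 2.13-fold, a log2 fold change of 1.09 ± 0.31 (SE) with an adjusted p of 0.00274 by edgeR's quasi-likelihood test, and it was called in every setting tried. The gene lies at chr14:90722871-90741773 (GRCh37). NRDE2, on the opposite strand across 83.2% of the PSMC1 transcript, had a log2 fold change of 0.37 ± 0.084 (SE), from 17.5 ± 1.67 CPM (SD, n = 3) to 22.8 ± 1.21 CPM, with an adjusted p of 3.5e-04. With the strand used in counting not given, it is not known whether reads of PSMC1 and NRDE2 were told apart where they overlap. PSMC1 lay at 0.212 CPM per kb beside 23.1 to 106 CPM per kb for the other 5 ATPases.

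Of the 11 non-ATPase members of the cap, 7 rose and none fell, beside the same 33.7% and 32.9%. ADRM1 and SEM1, cap subunits that are not members by name, were called lower (-0.19) and not called (0.12). PSMD12, a scaffold subunit of the lid, stood at 78.2, 74.7 and 70.7 CPM in vector and 108, 107 and 106 CPM in shMETTL3 libraries, a log2 fold change of 0.52 ± 0.054 (SE) with an adjusted p of 2.1e-09 by edgeR's quasi-likelihood test after Benjamini-Hochberg adjustment, and was the lowest per length in vector cells among cap subunits with unshared rows. The other lid subunits PSMD3 (0.25), PSMD6 (0.24) and PSMD11 (0.23) and the base scaffold PSMD1 (0.21) rose by 1.16 to 1.19-fold, with adjusted p-values from 1.4e-04 to 9.5e-04. PSMD13, the lid subunit with the smallest rise, stood at 113, 119 and 115 CPM in vector and 128, 127 and 125 CPM in shMETTL3 libraries, a log2 fold change of 0.13 ± 0.051 (SE) with an adjusted p of 0.0223. PSMD7, which pairs with the deubiquitinase, rose by a like amount (0.14, adjusted p 0.0348), and PSMD7 and PSMD13 were not called when any 1 of 4 and any 1 of 3 libraries was left out, nor without a filter on low counts, and PSMD7 was not called in DESeq2. Not called were PSMD14, the deubiquitinase of the lid (0.12), PSMD2, the other large base scaffold (0.10), PSMD4, a ubiquitin receptor (0.023), and PSMD8 (-0.022). PSMD2 lay higher in every shMETTL3 library than in any vector library and missed the threshold in the reported edgeR fit (adjusted p 0.068), but passed it in limma-voom, with upper-quartile scaling, with totals alone, with at least 10 counts in every library and without vector replicate 3. PSMD14 passed it with upper-quartile scaling, with totals alone, with at least 10 counts in every library, with a replicate block and without vector replicate 1, and PSMD4 and PSMD8 passed it, as higher, with totals alone (0.20 and 0.15).

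Of the 4 activators 1 rose, and the inhibitor was not called. PSME3, the nuclear activator PA28γ, stood at 226, 222 and 240.3 CPM in vector and 262, 266 and 259 CPM in shMETTL3 libraries, a log2 fold change of 0.19 ± 0.050 (SE) with an adjusted p of 0.00118 by edgeR's quasi-likelihood test after Benjamini-Hochberg adjustment, and its groups did not overlap. PSME1 and PSME2 form the interferon-inducible activator PA28αβ. PSME1 stood at 127, 123 and 130.2 CPM in vector and 123, 131 and 127 CPM in shMETTL3 libraries, with overlapping groups and a log2 fold change of 0.0044 ± 0.051 (SE). PSME2 stood at 58.3, 66.1 and 66.6 CPM in vector and 63.7, 63.2 and 52.2 CPM in shMETTL3 libraries, again with overlap, the lowest value in shMETTL3 replicate 3, and a log2 fold change of -0.087 ± 0.069 (SE). PSME4, the large activator PA200, and PSMF1, the inhibitor PI31, were not called either. PSME4 stood at 82.7, 79.8 and 83.1 CPM in vector and 80.4, 80.7 and 74.4 CPM in shMETTL3 libraries (log2 fold change of -0.059 ± 0.055 (SE)). PSMF1 stood at 181, 180.3 and 199.9 CPM in vector and 184, 175 and 183 CPM in shMETTL3 libraries (log2 fold change of -0.049 ± 0.053 (SE)). The adjusted p-values of these 4 by edgeR's quasi-likelihood test were 0.946, 0.275, 0.345 and 0.42. Scaled by totals alone, PSME1 (0.18) and PSMF1 (0.13) were called higher along with PSME3.

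The inducible catalytic subunits replace their constitutive partners after interferon. PSMB10 (β2i) had 29, 45 and 28 counts in vector and 56, 52 and 41 counts in shMETTL3 libraries, or 1.62, 2.69 and 1.72 CPM in vector and 2.9, 2.59 and 2.58 CPM in shMETTL3 libraries; vector replicate 2 lay inside the shMETTL3 range. Its log2 fold change of 0.43 ± 0.22 (SE) had an adjusted p of 0.092 by edgeR's quasi-likelihood test after Benjamini-Hochberg adjustment, and it was called higher without vector replicate 2 (0.69) and with totals alone (0.60). Within libraries, the log2 ratio per length of PSMB10 to its partner PSMB7 was -6.34 ± 0.40 (SD, n = 3) in vector and -6.19 ± 0.081 in shMETTL3, a difference of 0.15 with p = 0.5 in a two-sided exact permutation test, which cannot go below 0.1 with 3 against 3. PSMB8 (β5i), the partner of PSMB5, had 0 counts in all 6 libraries. Around it, within 1 Mb on chromosome 6, 64 of 70 protein-coding rows (91.4%) had at most 10 counts in every library, beside 31.8% of the 18979 protein-coding rows of the table, so a count of 0 at PSMB8 was shared by most of its region and gives no reading of its expression.

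Regulators of these subunits were mostly higher. Of 9 genes of interferon signalling listed as regulators of the inducible subunits, 7 rose and 1, STAT2, fell (-0.29), beside 33.7% higher and 32.9% lower among all genes tested, with a median log2 fold change of 0.60. Among those that rose were NLRC5, an activator of antigen presentation genes, at 1.81 ± 0.26 (SE) from 0.822 ± 0.0792 CPM (SD, n = 3) to 2.89 ± 0.588 CPM, and IFNGR1, a chain of the interferon gamma receptor, at 1.23 ± 0.059 from 56.8 ± 4.92 CPM to 133 ± 3.76 CPM. Their adjusted p-values by edgeR's quasi-likelihood test were 1.1e-06 and 3.0e-16. PSME1, PSME2 and PSMB10 were not called in the same fit.

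The assembly factors held the largest changes among well-measured members, in both directions. The pairs PSMG1 with PSMG2 and PSMG3 with PSMG4 are chaperones of the alpha ring. PSMG3 stood at 65.3, 67.9 and 67.7 CPM in vector and 36.5, 37.6 and 40.1 CPM in shMETTL3 libraries, 0.567-fold of vector, a log2 fold change of -0.82 ± 0.060 (SE) with an adjusted p of 2.6e-12 by edgeR's quasi-likelihood test after Benjamini-Hochberg adjustment. PSMG4, its partner, stood at 11.2, 9.46 and 11.1 CPM in vector and 6.84, 5.69 and 6.3 CPM in shMETTL3 libraries, 0.592-fold of vector, a log2 fold change of -0.76 ± 0.12 (SE) with an adjusted p of 4.7e-06. Both members of this pair were lower in every shMETTL3 library than in any vector library. PSMG2 fell as well, from 42, 40.8 and 39.4 CPM in vector to 32.1, 30.8 and 31.3 CPM in shMETTL3 libraries, a log2 fold change of -0.38 ± 0.065 (SE) with an adjusted p of 1.2e-05. Its partner PSMG1 stood at 27.4, 24.9 and 25 CPM in vector and 28.8, 29.2 and 26.1 CPM in shMETTL3 libraries, with overlapping groups, a log2 fold change of 0.12 ± 0.074 (SE) and an adjusted p of 0.142. Within libraries, PSMG1 over PSMG2 was 0.652, 0.611 and 0.636 in vector and 0.9, 0.948 and 0.833 in shMETTL3, a 1.41-fold higher mean ratio, with the levels of the partners closer to each other in shMETTL3 cells.

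PSMD5, PSMD9 and PSMD10 carry names of cap subunits but are chaperones of the cap base. PSMD10, also known as gankyrin, stood at 34.9, 35.1 and 33.8 CPM in vector and 66.6, 66.9 and 62.7 CPM in shMETTL3 libraries, 1.89-fold of vector, a log2 fold change of 0.92 ± 0.060 (SE) with an adjusted p of 2.4e-13 by edgeR's quasi-likelihood test after Benjamini-Hochberg adjustment. PSMD5 stood at 65.6, 65.4 and 64.1 CPM in vector and 102, 96.1 and 101 CPM in shMETTL3 libraries, 1.53-fold of vector, a log2 fold change of 0.61 ± 0.053 (SE) with an adjusted p of 8.3e-11. Neither overlapped between groups. PSMD9 stood at 7.24, 7.78 and 6.93 CPM in vector and 6.89, 7.18 and 7.62 CPM in shMETTL3 libraries, with overlap, a log2 fold change of -0.020 ± 0.12 (SE) and an adjusted p of 0.894, and its row shares exons. Among the tested PSM members, then, 3 of 4 chaperones of the alpha ring fell and none rose, and 2 of 3 chaperones of the cap base rose and none fell, beside 33.7% higher and 32.9% lower among all genes tested. With totals alone PSMG1 was called higher as well (0.30). PAAF1, a cap-base chaperone outside this naming, fell (-0.32). PSMD5 over PSMG3 within a library, in CPM not divided by length, was 0.947 to 1.0 in vector and 2.51 to 2.79 in shMETTL3, a pair set side by side after the values were seen.

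For some members, most of the nearest tested genes on the chromosome changed in the same direction. The median log2 fold change of the 50 nearest tested genes was 0.81 for PSMD10 on chromosome X (chrX:107327437-107334779, GRCh37), where 41 of the 50 rose and 4 fell, and over 445 X-linked tested genes other than PSMD10 it was 0.74, with 364 higher and 24 lower. For PSMD5 on chromosome 9 (chr9:123577774-123605229) the neighbours' median was 0.56, with 39 of 50 higher and 4 lower, and for PSMB7, also on chromosome 9 (chr9:127115744-127177723), it was 0.42, with 33 higher and 5 lower. All 3 lay within 0.15 of their neighbours' median, PSMD10 and PSMD5 above it and PSMB7 below it. PSMD12 on chromosome 17 had a neighbours' median of 0.23. How far these regions bear on the members' own values was not tested. The neighbours' median was 0.013 for PSMC2, -0.13 for PSMC4, -0.079 for PSMB3, -0.016 for PSMG3 and 0.12 for PSMG2, and PSMG4 had -0.29 beside its own -0.76. Over the 44 members the neighbours' medians ran from -0.29 to 0.81. For 6 members they were at 0.2 or more, and 5 of these 6 were called higher, beside 33.7% of all genes tested. At the lower end of the neighbours' medians, PSMG4 (-0.29) and PSMA4 (-0.22) were called lower, while PSME1, PSME2 and PSMB5 (-0.26 each) were not called. Within 0.15 of their neighbours lay 21 of 44 members, and the like share for other genes was not computed. The positions covered 90.5% of the genes tested.

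**Figure D4:**
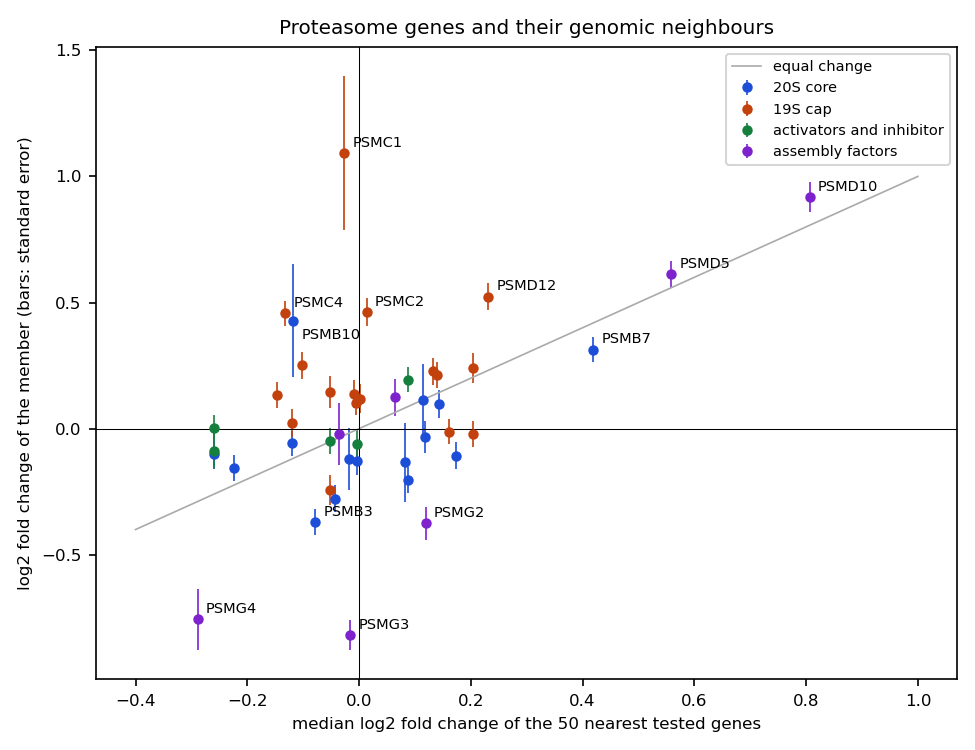
Log2 fold change of each tested member, with its standard error, against the median log2 fold change of the 50 nearest tested genes on its chromosome; the grey line marks equal change. PSMD10 (0.92 against 0.81) and PSMD5 (0.61 against 0.56) lie near the line, while PSMC2, PSMC4, PSMG3 and PSMG2 lie away from it.

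Among the factors that control proteasome transcription, 6 of 7 changed, 2 higher and 4 lower, beside 66.6% of all genes tested, with a median log2 fold change of -0.21. NFE2L1 rose, at 205, 186 and 217 CPM in vector and 248, 261 and 248 CPM in shMETTL3 libraries, a log2 fold change of 0.32 ± 0.055 (SE) with an adjusted p of 1.2e-05 by edgeR's quasi-likelihood test after Benjamini-Hochberg adjustment, and NGLY1, which removes sugars from NFE2L1 in its activation, rose as well (0.34). MAFG and MAFK, small MAF partners, fell by 0.64 and 0.40 on the log2 scale, from 84.6 ± 4.14 CPM to 54.5 ± 4.21 CPM and from 142 ± 7.36 CPM to 108 ± 5.98 CPM (SD, n = 3). NFE2L2 fell (-0.25), as did DDI2, the protease that cuts NFE2L1 (-0.21), and MAFF was not called (-0.092). Of the called members that hold the element's core in the promoter sequence, PSMD3, PSMD12 and PSMD5 were higher and PSMB3, PSMG2 and PSMA4 were lower. A link between these factors and the members was not tested.

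Of 9 other proteins that belong to or bind the proteasome, 3 rose and 2 fell, a share of 55.6% that was under the 66.6% of all genes tested, with a median of 0.10. ECPAS, which holds the cap to the core, rose by 1.46-fold from 148 ± 5.31 CPM to 215 ± 2.37 CPM, and TXNL1, a thioredoxin bound to the cap, rose by 1.29-fold from 72.6 ± 2.04 CPM to 93.4 ± 5.69 CPM (SD, n = 3). PAAF1, a chaperone of the cap ATPases, fell to 0.800-fold, from 29.7 ± 1.21 CPM to 23.8 ± 1.88 CPM. UCHL5, a cap deubiquitinase, rose (0.27) and its receptor ADRM1 fell (-0.19), while USP14 (0.062), SEM1 (0.12), UBE3C (0.10) and POMP, the chaperone of the beta ring (0.057), were not called.

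Upstream of the proteasome, both ubiquitin-activating enzymes rose. RPS27A, which encodes ubiquitin fused to a ribosomal protein, went from 419 ± 34 CPM to 313 ± 5.04 CPM (SD, n = 3; log2 fold change -0.42) and was called lower. UBA1, the main activating enzyme, is X-linked like PSMD10 and went from 229.5 ± 11.3 CPM to 318 ± 8.02 CPM (0.47). UBA6 rose (0.34) and UBB was not called (-0.15). Among p97 and the shuttle factors that bring substrates to the cap, 9 of 10 changed, 5 higher and 4 lower, beside 66.6% of all genes tested. UBQLN2, a shuttle encoded on chromosome X, rose 2.32-fold from 22.8 ± 1.02 CPM to 53 ± 1.55 CPM, and FAF1, a cofactor of p97, fell to 0.535-fold from 66.8 ± 1.89 CPM to 35.7 ± 1.71 CPM. RAD23B, a shuttle factor, rose (0.48).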

How the data were processed

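Total RNA of 6 A549 libraries, 3 vector and 3 shMETTL3, was sequenced. The deposited values are whole-number counts per gene symbol, not normalized, for 57781 rows. Per the labels, the authors used cutadapt 3.0, HISAT2 2.2.1, SAMtools 1.13, HTSeq 0.13.5 and hg19, although other versions of HISAT2 and HTSeq stand in the study's methods, and the annotation and strand setting are not given in the sources used here. Groups came from the sample titles, and no column was left unused.

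Counts were tested in R 4.3.3 with edgeR 4.0.16 (TMM, filterByExpr, glmQLFit, glmQLFTest, group only) and Benjamini-Hochberg adjustment over 15125 genes, called under 0.05. Standard errors came from the unshrunk coefficient and F statistic. CPM per kb used the GENCODE v44 canonical transcript on GRCh37. DESeq2 1.42.0, limma-voom 3.58.1, other scalings and filters, a replicate block, 0.01 as threshold and each library left out were alternatives. The test was also run on simulated data with as many genes raised as lowered. That run does not bear on the choice of scaling, and its outcome is not reported here. PSMB8 ratios could not be computed, and SHFM1, KIAA0368 and UFD1L were matched through older symbols.

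The members and lists were chosen with earlier results of these data known. Values in every library were given for METTL3, the catalytic subunits, activators, assembly factors and, in each class, the 2 highest and 2 lowest called members. For the other lists the 3 largest called changes are given, except for a few genes that are not reported here. PSMC2, PSMC4, PSMA7, NFE2L1, MAFK and NRDE2 were added to these after their values were seen.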

Additional observations from a re-analysis of the deposited data

How the results depend on the processing

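The counts of members called, by class and direction, stayed within 1.5 times of the reported ones under RLE scaling, upper-quartile scaling, both filters, DESeq2, limma-voom and a replicate block. With library size alone, 26 members were higher and 4 lower, 4 core subunits were higher and 1 lower, 0 cap subunits were lower, and 3 activators and inhibitors changed, 3 of them higher. The medians then turned to 0.067 for the core, 0.13 for activators and inhibitors and 0.15 for assembly factors, and single values to PSMA1 0.052, PSMA2 0.040, PSMA3 0.067, PSMA4 0.020, PSMA5 0.14, PSMA7 0.044, PSMB4 0.12, PSMB5 0.073, PSMC5 0.16, PSMD8 0.15, PSMD9 0.15, PSME2 0.088, PSME4 0.12 and PSMF1 0.13, of which PSMB4, PSMC5, PSMD8 and PSMF1 were called higher. Also called higher, with no change of sign, were PSMB1 0.27, PSMB10 0.60, PSMD2 0.28, PSMD4 0.20, PSMD14 0.29, PSME1 0.18 and PSMG1 0.30. Upper-quartile scaling turned the median of assembly factors to 0.0027, with PSMC5 0.012, PSMD8 0.0012, PSMD9 0.0027; no filter turned the median of members to -0.0083 (PSME1), and at least 10 counts in every library turned PSMC5 to 0.0063. At an adjusted p under 0.01, 3 core subunits were lower. With PSMD5, PSMD9 and PSMD10 counted in the cap, 3 of 4 assembly factors changed, 0 higher. Leaving out 1 library at a time gave 3 to 9 core subunits lower, 4 to 10 changed and 1 to 2 higher, the most changed without vector replicate 3, and put these uncalled values on both sides of 0: PSMA1 -0.27 to 0.083, PSMA5 -0.13 to 0.0096, PSMC5 -0.033 to 0.00063, PSMD4 -0.024 to 0.074, PSMD8 -0.063 to 0.021, PSMD9 -0.063 to 0.019, PSME1 -0.021 to 0.029, the median of assembly factors -0.063 to 0.019. The cause was not tested. The replicate numbers did not pair the libraries (same-number correlations of deviations 0.069, -0.024 and 0.039), and the replicate block called 10111 genes in place of 10067 and added PSMD14 (adjusted p 0.043). Leaving out PSMA1, PSMA2, PSMA6, PSMB10, PSMC1 and PSMD9 for shared exons was an alternative chosen after seeing the data. It left 23 changed, 14 higher and 9 lower, and moved the median of assembly factors to -0.13, PSMD9 being the 1 factor left out. The PSMB10 to PSMB7 difference was 0.14 with 0.5 counts added and 0.018 to 0.38 with 1 library left out, and no ratio of PSMB8 could be formed. At this depth the standard error was 0.049 for PSMB7 and 0.31 for PSMC1 on the log2 scale, so changes of rows with few counts were least precise.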

Other observations

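Antisense RNAs named for members, whose exons do not lie in the canonical transcripts of those members, were also in the table. PSMG3-AS1 stood at 23.1 ± 1.32 CPM (SD, n = 3) in vector and 14.2 ± 1.19 CPM in shMETTL3 libraries, a log2 fold change of -0.70 ± 0.086 (SE) with an adjusted p of 6.1e-08 by edgeR's quasi-likelihood test, and was lower as PSMG3 was. PSMA3-AS1 stood at 18.6 ± 1.0 CPM and 24.4 ± 1.24 CPM, a log2 fold change of 0.38 ± 0.079 (SE) with an adjusted p of 1.2e-04, while PSMA3 was not called at -0.11. Strand is not stated for the counting. Whether reads of a member and its antisense partner were told apart where they overlap outside those transcripts is therefore not known.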
